A study of Mus musculus with 12 samples.

Results

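The cells described here were primary mouse lung endothelial cells of the C57BL/6J strain, wild type, grown as monolayers and kept at 21% oxygen (normoxia) with no further treatment. They were chosen by their labels and make up 3 of the 12 libraries of the series. The other 9 libraries, which are not used here, held wild type cells at 1% oxygen and cells lacking MLK2 and MLK3 at either oxygen level. The medium was an equal mixture of DMEM and Ham's F-12 with 20% fetal bovine serum, endothelial mitogen, heparin and antibiotics, so every value describes cells in culture and not endothelium in the lung. The sources used here do not give how the cells were purified, their passage, or the age and sex of the mice. Nothing says that the 3 libraries came from separate cultures or animals, so the spread between them may be technical. There is 1 group and no contrast, so levels were described and not tested, and 2 genes were called ordered only where their ranges over the 3 libraries did not overlap.

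Levels are in FPKM (fragments per kilobase of transcript, scaled to the mapped fragments of the library), summed over the transcripts of a gene, and every mean ± SD is over the 3 libraries (n = 3). FPKM is scaled for length, so levels of different genes can be set side by side, with a caution for short transcripts given below. The libraries held an estimated 24800000, 24300000 and 24500000 fragments and between 11324 and 11355 genes at 1 FPKM or more. Of 23422 genes, 11065 reached 1 FPKM in all 3 libraries, or 47.2%, and this share is the background for every list below. A level of 10 FPKM was reached in all 3 libraries by 6213 genes, 100 FPKM by 935 and 1000 FPKM by 106, and 4003 genes were listed at 0 in all 3.

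Endothelial cells line blood and lymph vessels. They are held together by junctions of VE-cadherin, PECAM1 and claudin 5, read growth factors through the VEGF and TIE receptors, and differ between arteries, veins, capillaries and lymphatics. In the lung, most capillary endothelium belongs either to a general capillary type or to the aerocytes, which are specialised for gas exchange.

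The endothelial label held. Pecam1 (ENSMUSG00000020717), a junctional adhesion molecule, was at 552, 549 and 562 FPKM. Cdh5 (ENSMUSG00000031871), which encodes VE-cadherin, was at 147, 154 and 145 FPKM. Cldn5 (ENSMUSG00000041378), the endothelial claudin, was at 335, 301 and 316 FPKM. These 3 junction genes lay in narrow bands that did not overlap one another, with Pecam1 highest and Cdh5 lowest. Kdr (ENSMUSG00000062960), the main receptor for VEGF-A, was lower, at 75.5, 82.7 and 74.7 FPKM. Lyve1 (ENSMUSG00000030787), a hyaluronan receptor of lymphatic and some other endothelium, was at 339, 335 and 359 FPKM, above Kdr, Cdh5 and Cldn5 in every library.

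Of 36 genes known from endothelium at large, 35 reached 1 FPKM in all 3 libraries (97.2%, against 47.2% of all genes), with a median of 93.9 FPKM. Together they made up 1.18% ± 0.01005 of all FPKM. Highest were Egfl7, a secreted vascular protein, and Emcn, the sialomucin endomucin, at 1282 to 1442 and 1233 to 1317 FPKM. Cav1, the coat protein of caveolae, was at 649 ± 14.2 FPKM and Plvap, which forms the diaphragms of caveolae and fenestrae, at 606 ± 9.11 FPKM. The exception was Vwf, the clotting factor stored in Weibel-Palade bodies, at 0.104, 0.118 and 0.144 FPKM. Low but above the threshold were Nos3, the endothelial nitric oxide synthase, at 20.6 ± 0.967 FPKM, Flt1, a VEGF receptor, at 5.01 ± 0.246 FPKM, and the transcription factor Sox17 at 1.27 ± 0.129 FPKM. The genes of this list thus spanned from under 1 to over 1000 FPKM in the same libraries.

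The most abundant transcripts were those of protein synthesis. The single highest gene held 1.596% ± 0.0322 of all FPKM, the top 10 held 9.69% ± 0.175, the top 100 held 37.1% ± 0.307 and the top 1000 held 71.2% ± 0.260. Of the 40 highest genes with an ordinary symbol, 31 encode cytosolic ribosomal proteins, and 82 of 85 such genes reached 1 FPKM. Ribosomal protein genes summed to 26.6% ± 0.302 of all FPKM. Eef1a1, which brings aminoacyl-tRNA to the ribosome, led the list at 10681, 10447 and 11183 FPKM, above every library of the next gene, Rplp1, a protein of the ribosomal stalk, at 8348, 7848 and 8223 FPKM. Rps27, Rps21 and Rps12 of the small subunit followed at 7804 ± 541, 6625 ± 240 and 6214 ± 234 FPKM. Beside these, the nuclear subunits of oxidative phosphorylation summed to 2.95% ± 0.0231, translation factors to 2.98% ± 0.0344, histones to 2.53% ± 0.0552, proteasome subunits to 0.940% ± 0.0102 and 18 glycolysis enzymes to 0.526% ± 0.00486 of all FPKM. Many ribosomal protein, Eef1a1, Gapdh and histone sequences have near-identical copies in the genome, and the counting of reads shared by copies is not stated in these sources, so these levels are uncertain.

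Ribosomal protein and elongation factor mRNAs are known for a run of pyrimidines at their 5′ end (the TOP motif), through which growth signals set their translation. Because this class carries more of the transcriptome than any other class measured here, 6 starts are shown, all chosen among the most abundant genes for holding the run. Each sequence runs from 25 bases before to 15 bases after a RefSeq transcript start (GRCm38.p6, 5′ to 3′ on the gene's strand), with the pyrimidine run in capitals.
Eef1a1 (chr9:78481710-78481749, minus strand): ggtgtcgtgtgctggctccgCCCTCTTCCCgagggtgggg
Rps27 (chr3:90213634-90213673, minus strand): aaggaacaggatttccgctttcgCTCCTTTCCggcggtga
Rps21 (chr2:180257354-180257393, plus strand): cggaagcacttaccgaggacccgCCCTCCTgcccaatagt
Rpl38 (chr11:114668555-114668594, plus strand): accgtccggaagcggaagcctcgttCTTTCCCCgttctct
Rps24 (chr14:24490653-24490692, plus strand): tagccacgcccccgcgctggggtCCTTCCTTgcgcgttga
Rpl35a (chr16:33056457-33056496, plus strand): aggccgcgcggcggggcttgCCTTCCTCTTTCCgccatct
A C followed by at least 5 further C or T letters, from 5 bases before to 12 bases after the start and on the gene's strand, was found for 29 of the 62 ribosomal protein genes with an entry (46.8%). The same run was found for 12.8% of all 27025 genes with an entry and for 13.8% of those at 1 FPKM or more. A match describes these letters only.

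The highest genes other than those of ribosomal proteins had varied roles, as the plot of the highest other genes shows. Malat1, a nuclear noncoding RNA, was at 4796, 4577 and 4577 FPKM. Tmsb4x, the actin-binding thymosin beta 4, was at 5396, 5171 and 5349 FPKM. Vim, the intermediate filament vimentin, was at 2947 ± 32.5 FPKM and Actb, cytoplasmic actin, at 2857 ± 109 FPKM, with ranges that overlapped. S100a6, a calcium-binding protein, was at 3163 to 3435 FPKM, above both. Among genes tied to vessels, Fabp4, a fatty acid carrier found in capillary endothelium, stood at 1850, 1624 and 1792 FPKM. Tm4sf1, a surface protein of endothelial nanopodia, was at 1702 ± 36.5 FPKM. Angpt2, the TIE2 ligand released at sites of vessel growth, was at 1398, 1356 and 1419 FPKM, close to Egfl7. Plau, the urokinase protease, was at 1259 ± 34.4 FPKM, and Sparc, a matrix-associated protein, at 1116 ± 11.5 FPKM. Ctla2a, a cysteine protease inhibitor, reached 1837 ± 22.8 FPKM, and the monocyte chemokine Ccl2 reached 881 ± 18.3 FPKM.

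**Figure D1:**
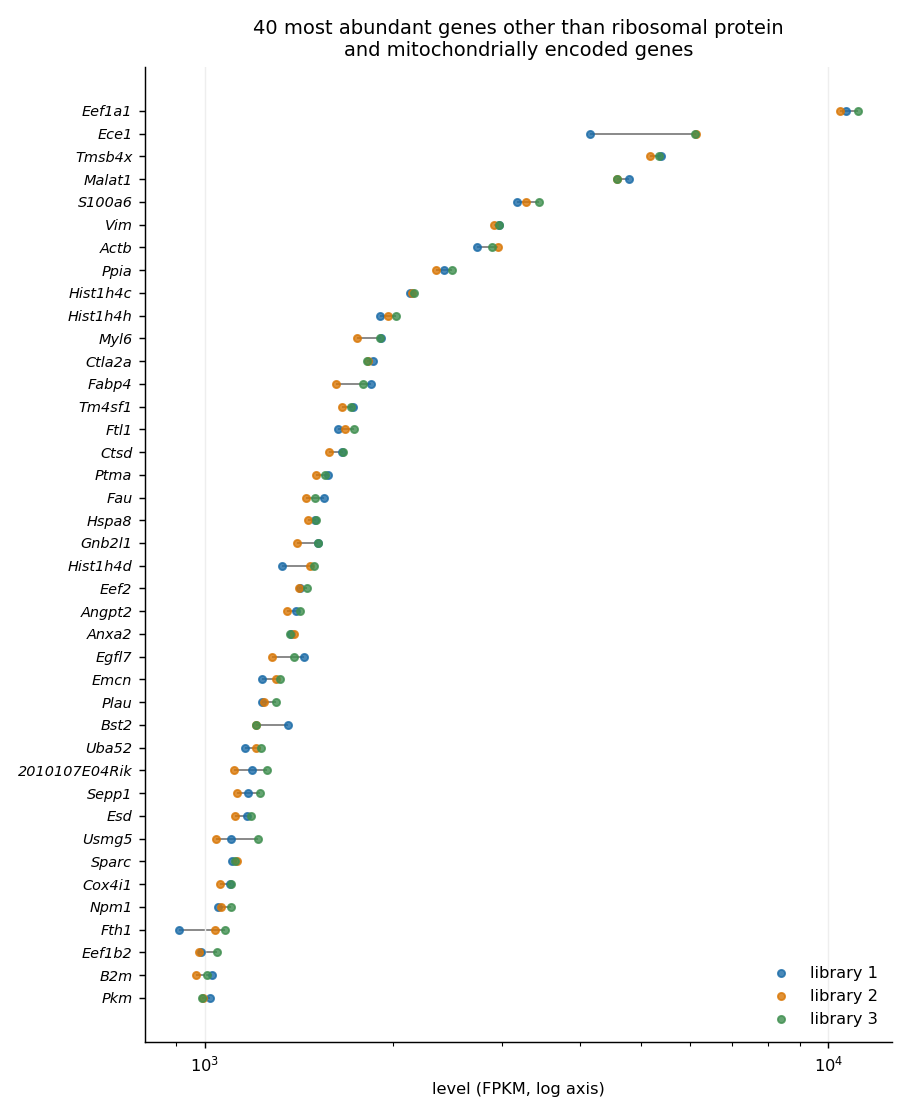
Level in FPKM (log axis) of the 40 highest genes other than ribosomal protein genes, mitochondrially encoded genes and gene models with a Gm number, with 1 point per library and a line over their range. Eef1a1 stands alone near 10770.2 FPKM, Ece1 is split between library 1 and the other libraries, and most other ranges are narrow.

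Some of the highest values rest on very short transcripts. Ece1, which encodes the enzyme that activates endothelin, was listed at 4141, 6125 and 6121 FPKM, but 97.8% ± 0.537 of this came from a transcript of 172 bases (ENSMUST00000130407, GRCm38 chromosome 4, 137862297 to 137913854, plus strand). Without that transcript, Ece1 was at 116, 123 and 110 FPKM. The FPKM values fitted a length from which 275 bases had been taken off, which raises short transcripts most. With whole lengths instead, Rps27, whose transcript has 345 bases, would stand at 1585 FPKM in place of 7804, while Eef1a1 would stay highest at 9099 FPKM and Vim would be at 2534 FPKM. On that scale only genes with all transcripts over 300 bases were ranked, which held 38 of the 40 highest genes. Of the 40, 32 stayed among the 40 highest. The 13 mitochondrially encoded genes summed to only 0.300% ± 0.0201 of all FPKM and were uneven, from 1264 ± 12.2 FPKM for mt-Co1 to 0.974, 0.701 and 0.0991 FPKM for mt-Co2, 2 subunits of the same enzyme, and mt-Nd4l was listed at 0.

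Endothelial subtypes were compared through lists of markers. A list is a description of bulk RNA, in which a few cells of a type and a low level in every cell cannot be told apart. Among the subtype lists, lymphatic and angiogenic markers were the most complete. The lists were chosen with earlier results of these data known, so their completeness is a description and not independent evidence of a subtype. All 15 genes of the tip cell and angiogenic list reached 1 FPKM in all 3 libraries, with a median of 59.2 FPKM, as did 17 of 18 lymphatic genes, with a median of 24.01 FPKM. Of the venous list 10 of 14 did (median 8.13 FPKM) and of the arterial list 14 of 18 (median 2.82 FPKM). Fewer genes reached it in the general capillary list, 7 of 12 (median 3.97 FPKM), and in the aerocyte list, 4 of 12 (median 0.105 FPKM). The share was above the background of 47.2% in each of these lists except the aerocyte list, at 33.3%.

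The lymphatic list held both general and defining genes. Prox1, the transcription factor that sets lymphatic identity, was at 24.5, 24.8 and 22.5 FPKM. Flt4, the VEGF-C receptor, was at 65.9, 71.2 and 63.2 FPKM, and Pdpn, podoplanin, at 54.1, 50.8 and 48.8 FPKM. Mmrn1, a multimerin of lymphatic endothelium and platelets, was at 249, 261 and 260 FPKM. Each of these was well above 1 FPKM in every library, and their ranges over the libraries were narrow. Stab1, a scavenger receptor also of sinusoids, was at 302 ± 24.3 FPKM. Thy1, a surface glycoprotein of lymphatics and fibroblasts, was at 216, 258 and 264 FPKM. The neuropeptide gene Nts (28.8 ± 0.705 FPKM), Fxyd6 (24.1 ± 1.09 FPKM), the T-box factor Tbx1 (21.7 ± 1.36 FPKM), Cp (13.5 ± 0.258 FPKM) and Reln, the matrix protein reelin (11.8 ± 1.64 FPKM), were intermediate. Itga9 (8.95 ± 0.633 FPKM), Maf (6.82 ± 0.234 FPKM), Sema3d (4.29 ± 0.314 FPKM) and Foxc2, a factor of lymphatic valves (2.90 ± 0.131 FPKM), were lowest. The exception was Ccl21a, the chemokine by which lymphatics draw dendritic cells, at 0.471, 4.60 and 1.77 FPKM, with near-identical copies in the genome that make its level uncertain.

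Angiogenic genes were led by Angpt2. Esm1, endocan, a proteoglycan of tip cells, was at 328, 368 and 328 FPKM, and Adm, the vasodilator adrenomedullin, at 313, 307 and 300 FPKM. Pgf, placental growth factor, was at 238, 233 and 236 FPKM. The tip cell genes Apln and Cxcr4 were at 190 ± 17.1 and 165 ± 5.84 FPKM, so the apelin ligand was abundant. Its receptor gene Aplnr, a marker of general capillary cells, was at 0.0235, 0.0595 and 0.0472 FPKM. Lamb1 (103 ± 7.63 FPKM), Plxnd1 (59.2 ± 2.63 FPKM), the netrin receptor Unc5b (49.2 ± 3.55 FPKM), Nid2 (31.5 ± 1.72 FPKM), Pdgfb, which recruits pericytes (17.3 ± 1.07 FPKM), Igfbp3 (16.7 ± 1.27 FPKM) and Kcne3 (15.8 ± 1.98 FPKM) followed. The Notch ligand Dll4, which marks tip cells and arteries, was lowest at 3.33 ± 0.211 FPKM.

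Venous genes were led by the protease Prss23 at 394, 394 and 419 FPKM. Ephb4, the receptor that marks veins, was at 68.6, 68.5 and 65.4 FPKM, and its arterial ligand Efnb2 was at 7.02, 9.00 and 9.19 FPKM, so the venous member of the pair was higher in every library. Nr2f2, the transcription factor that sets venous fate, was at 10.5 ± 0.244 FPKM. Nrp2, a receptor shared by veins and lymphatics (87.4 ± 6.92 FPKM), Car8 (59.1 ± 1.33 FPKM), P-selectin, encoded by Selp (20.0 ± 1.79 FPKM), Vcam1 (8.95 ± 0.415 FPKM), Tmem252 (7.30 ± 0.734 FPKM), Bst1 (3.02 ± 0.297 FPKM) and Amigo2 (2.42 ± 0.132 FPKM) also reached the threshold. E-selectin, encoded by Sele, was at 1.08, 1.47 and 0.843 FPKM and did not. Ackr1, the chemokine scavenger of venules, was at 0.218 ± 0.0725 FPKM and Slc6a2 at 0.0404, 0 and 0.0139 FPKM.

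Arterial markers were present at low levels. Highest were Cdh13, T-cadherin, at 54.4 ± 1.38 FPKM, Unc5b, the matrix gene Fbln2 at 26.9 ± 2.06 FPKM, the WNT modulator Dkk2 at 18.5 ± 1.46 FPKM and the receptor Notch4 at 15.8 ± 0.865 FPKM. The chemokine Cxcl12 (11.7 ± 1.41 FPKM), Nrp1 (5.29 ± 0.577 FPKM), Fbln5 (2.32 ± 0.150 FPKM), Mgp (2.17 ± 0.794 FPKM), the kinase Bmx (1.55 ± 0.0344 FPKM) and the Notch target Hey1 (1.43 ± 0.171 FPKM) also passed. The connexins of arteries, Gja5 at 0.339, 0.0690 and 0.625 FPKM and Gja4 at 0.428, 0.868 and 0.660 FPKM, did not. Sema3g was at 0.282 ± 0.0133 FPKM and Hey2 at 0, 0 and 0.0178 FPKM. With a threshold of 5 FPKM in place of 1, the arterial list had 7 members left of 18.

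Genes that mark lung capillaries in tissue were uneven. Of the general capillary list, Plvap, the C1q-like receptor Cd93 (202 ± 8.10 FPKM), the phosphatase Ptprb (19.4 ± 1.94 FPKM), Cxcl12, the receptor Kit (7.56 ± 0.580 FPKM), Gpihbp1, which anchors lipoprotein lipase (5.82 ± 0.296 FPKM), and Ace, the angiotensin converting enzyme (2.12 ± 0.159 FPKM), reached the threshold. Tmem100 (0.849 ± 0.255 FPKM), Lpl (0.461 ± 0.0802 FPKM), the prostaglandin dehydrogenase Hpgd (0.215 ± 0.0568 FPKM), Aplnr and Sema3c (0.0363 ± 0.0227 FPKM) did not. Among aerocyte genes, Apln, Cyp4b1 (49.0 ± 2.89 FPKM), the endothelin receptor Ednrb (15.2, 15.2 and 14.6 FPKM) and Chst1 (7.80 ± 0.643 FPKM) reached it. Car4, carbonic anhydrase 4 and the best known aerocyte marker, was listed at 0 in all 3 libraries, where 3 fragments would have given an estimated 0.126 FPKM. The other aerocyte genes, Prx (0.579 ± 0.0546 FPKM), Fibin (0.109 ± 0.0662 FPKM), the T-box factors Tbx2 (0.101 ± 0.0454 FPKM) and Tbx3 (0.0205 ± 0.0129 FPKM), Emp2 (0.0853 ± 0.0146 FPKM), Rprml (0, 0 and 0.110 FPKM) and Scn7a (0, 0.00576 and 0 FPKM), were below it. So the aerocyte list was carried by Apln, which is also a tip cell gene.

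Of 11 genes tied to lung endothelium, 4 reached 1 FPKM in all 3 libraries (36.4%, against 47.2% of all genes). The list holds receptors and transcription factors, and also Ace, Hpgd and Tmem100 of the general capillary list. Acvrl1, the BMP9 receptor ALK1, was at 58.8 ± 2.12 FPKM, Bmpr2 at 8.43 ± 0.773 FPKM and Gata2 at 3.48, 6.62 and 5.23 FPKM. The remaining gene at the threshold was Ace, given above. Foxf1, a defining factor of lung endothelium, was at 0.527, 0.400 and 0.491 FPKM, below the threshold in every library. For other organs, the liver sinusoid list had 6 of 12 genes at the threshold, led by Ctsl (760 ± 29.8 FPKM), Lyve1 and Stab1, while Stab2 was at 2.48 ± 0.337 FPKM and Gata4 at 0.264, 0.0191 and 0 FPKM. The heart and muscle list had 6 of 9, led by Fabp4, Fabp5 (649 ± 43.3 FPKM), Aqp1 (175 ± 10.2 FPKM) and Tcf4 (88.7 ± 3.25 FPKM), with Meox2 at 0.253 ± 0.109 FPKM. The brain list had 4 of 12, led by Slc2a1 and Itm2a (23.3 ± 0.788 FPKM), with Slco1a4 and Slco1c1 listed at 0.

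**Figure D2:**
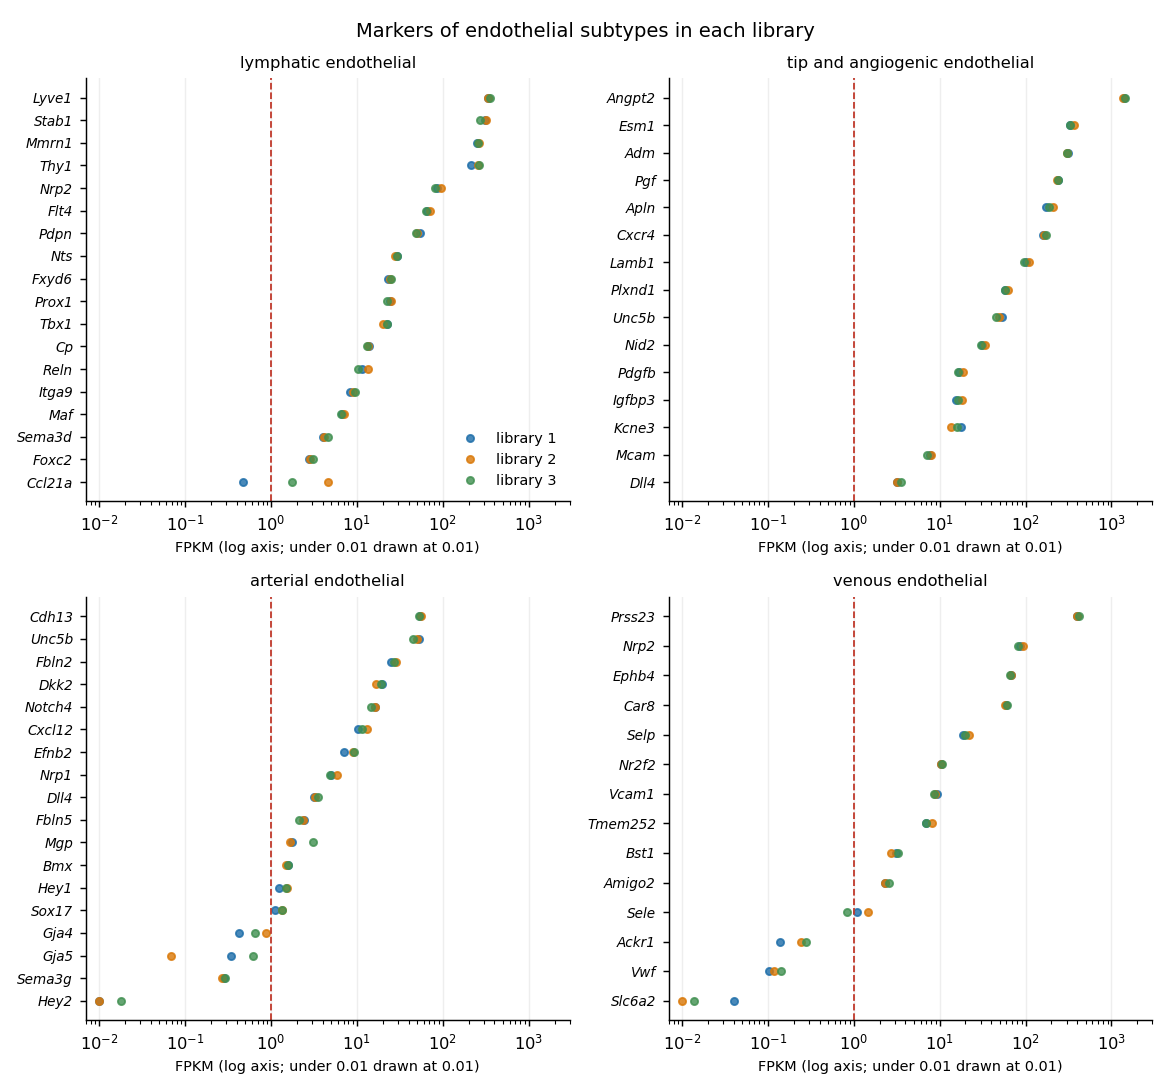
FPKM (log axis) of each gene of the lymphatic, tip and angiogenic, arterial and venous lists, with 1 point per library, values under 0.01 drawn at 0.01 and the dashed line at 1 FPKM. All angiogenic genes and all lymphatic genes but Ccl21a lie to the right of the line in every library, and the lowest arterial and venous genes scatter to its left.

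Lists of markers of other lung cells had medians under 1 FPKM, each with a few higher members. Of fibroblast genes 3 of 18 reached 1 FPKM in all 3 libraries (16.7%, against 47.2% of all genes). Thy1 and Itga8 (9.45 ± 0.246 FPKM) led that list, while Col1a1 was at 0.0428, 0.0936 and 0.0143 FPKM, Pdgfra at 0.294 ± 0.0778 FPKM, and Lum and Mfap5 were listed at 0. The summed level of the list was 229 to 277 FPKM, nearly all of it Thy1. Of smooth muscle and pericyte genes 4 of 18 passed, namely Tagln (27.7 ± 4.20 FPKM), Mylk (7.54 ± 0.294 FPKM), Kcnj8 (3.04 ± 0.457 FPKM) and Acta2 (2.51 ± 0.611 FPKM). Myh11, the smooth muscle myosin, was at 0.0571, 0.0256 and 0.0127 FPKM and Pdgfrb at 0.189 ± 0.0575 FPKM, and the list summed to 39.2 to 49.4 FPKM. Mesothelial genes reached 1 FPKM in 3 of 10 cases, led by Gpm6a (38.6 ± 0.898 FPKM), Krt18 and Krt19 (2.10 ± 0.251 FPKM), with Calb2 listed at 0, Msln at 0.0219, 0 and 0 FPKM and Upk1b at 0.0901 ± 0.0559 FPKM.

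Epithelial lists also had medians under 1 FPKM. No airway gene of 12 reached 1 FPKM, and the list summed to 0.597 to 1.18 FPKM. The highest were Tppp3 (0.534 ± 0.232 FPKM) and Foxj1 (0.236 ± 0.0408 FPKM), with Scgb1a1, Scgb3a2 and Calca listed at 0. Sftpc, surfactant protein C, was listed at 0 in all 3 libraries, where 3 fragments would have given an estimated 0.239 FPKM, as was Napsa. The 3 of 10 alveolar type 2 genes at the threshold were Lyz2 (21.4 ± 4.22 FPKM), which the macrophage list also holds, Abca3 (15.8 ± 0.807 FPKM) and Etv5 (5.05 ± 0.292 FPKM). Of 8 alveolar type 1 genes, Pdpn, shared with lymphatics, and Hopx (2.04 ± 0.369 FPKM) passed. Ager was at 0.995, 0.973 and 1.08 FPKM, Clic3 was listed at 0. Of 12 general epithelial genes 3 passed, namely Krt18 (28.9 ± 2.24 FPKM), Krt19 and Cldn4 (1.11 ± 0.0463 FPKM). Epcam was at 0.0228, 0.0462 and 0 FPKM, Krt8 at 0.291 ± 0.133 FPKM, and Cldn3 was listed at 0.

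Blood cell markers gave a similar picture, with some exceptions. Ptprc, the pan-leukocyte phosphatase CD45, was at 0.0820, 0.156 and 0.168 FPKM. Of 12 general haematopoietic genes 3 passed, namely the tetraspanin Cd53 (14.9 ± 1.19 FPKM), the actin bundler Lcp1 (10.7 ± 1.92 FPKM) and Coro1a (1.77 ± 0.397 FPKM). Tyrobp was at 1.92, 0.711 and 0.703 FPKM. Of 18 macrophage genes 6 passed, led by the phagocytic receptor Mertk (25.1 ± 1.12 FPKM), Lyz2, the endotoxin co-receptor Cd14 (19.7 ± 1.01 FPKM) and Cd68 (2.97 ± 0.241 FPKM). Csf1r, the receptor that defines macrophages, was at 0.229 ± 0.0431 FPKM, C1qa, C1qb and C1qc at 0.229 ± 0.0285, 0.299 ± 0.00276 and 0.247 ± 0.0483 FPKM, and Chil3 and Ly6c2 were listed at 0. None of 12 neutrophil and mast cell genes and none of 12 lymphocyte genes passed. S100a8 (0.192 ± 0.00463 FPKM) and Cd79a (0.126 ± 0.0395 FPKM) were the highest of these, and S100a9, Mpo, Elane, Csf3r, Retnlg, Fcer1a, Cd3d, Cd3e, Cd3g, Cd79b, Nkg7, Ncr1 and Gzma were listed at 0. Of 11 erythroid and platelet genes, Pf4 (2.33 ± 0.358 FPKM) and Itga2b (1.31 ± 0.0424 FPKM) passed, and the globin genes Hbb-bs and Hba-a2 were listed at 0. What share of Lyz2, Cd14, Mertk or Pf4 came from other cells was not tested.

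Muscle, fat and nerve markers were the remaining check. Tnnt2 (1.53 ± 0.118 FPKM) was the sole gene of 11 for adipocytes and striated muscle to pass, with Actc1 and Myl7 listed at 0, and Stmn2 (5.13 ± 0.272 FPKM) the sole gene of 10 for glia and neurons. Of 15 genes tied to mesenchymal transition 9 passed (60%, against 47.2% of all genes). They were led by Vim, S100a4 (828 ± 13.1 FPKM), fibronectin Fn1 (430 ± 54.1 FPKM) and Tagln. The inducing factors Snai1 (0.782 ± 0.110 FPKM), Snai2 (0.837 ± 0.134 FPKM) and Twist1 (0.0910 ± 0.0912 FPKM) were below the threshold, and Zeb1 was at 22.1 ± 2.66 FPKM. Xist, the RNA that coats the inactive X chromosome, was at 15.01, 15.4 and 13.8 FPKM, and Ddx3y, Kdm5d and Uty of the Y chromosome were listed at 0. Nnt, of which C57BL/6J mice carry a partial deletion, was at 13.3 ± 0.806 FPKM.

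**Figure D3:**
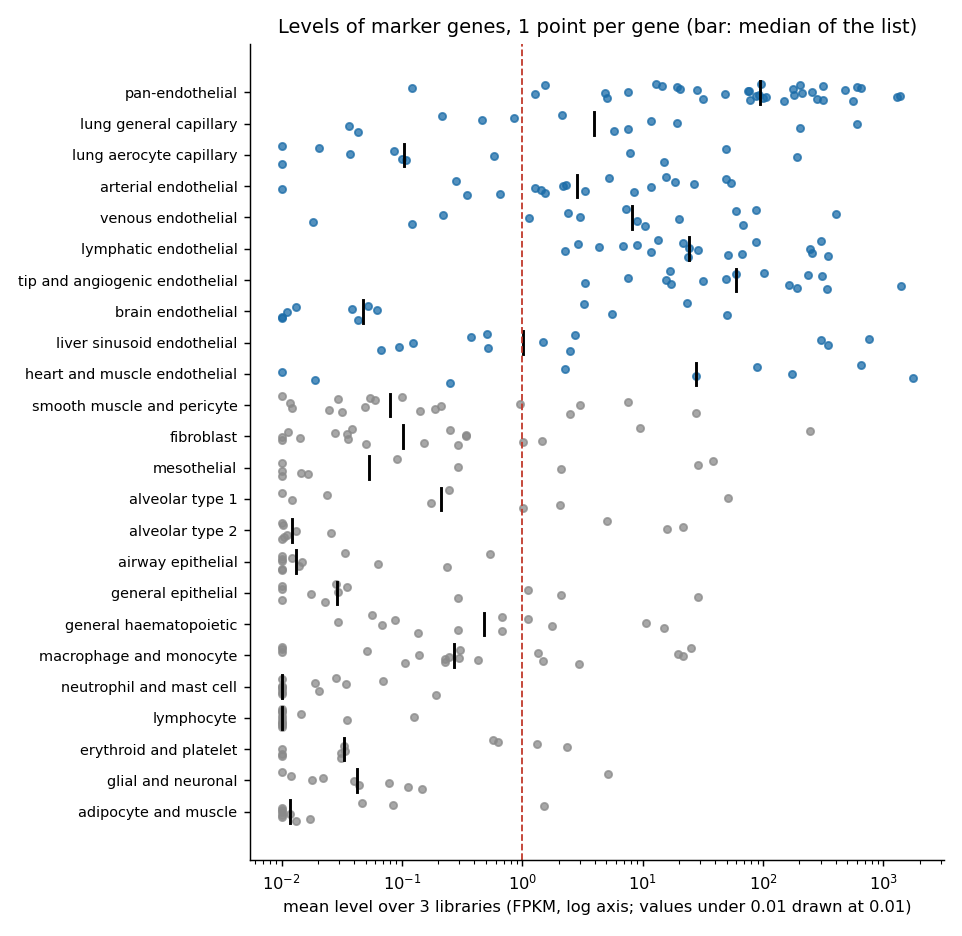
Mean FPKM over the 3 libraries (log axis) of every gene of 24 marker lists, 1 point per gene, with endothelial lists in blue, other cell types in grey and a bar at the median. The pan-endothelial, angiogenic and lymphatic lists have medians of 93.9, 59.2 and 24.01 FPKM, and every grey list has a median below 1 FPKM (dashed line).

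Within the gene families listed, the highest member usually held over 50% of the summed FPKM. In a family of 2 members this follows from arithmetic, and shares for arbitrary gene sets of the same sizes were not computed. Some lists, such as B2m with MHC genes, are not strict paralogues. In 115 families with 581 members in all, a leading member had its whole range over the 3 libraries above that of every other member in 112. It held over 90% of the family's FPKM in 36 families, 50 to 90% in 64 and under 50% in 12, with a median share of 72.9%. The 36 include the endothelin converting enzymes, where the lead of Ece1 rests on its transcript of 172 bases. Without that transcript, Ece1 was 6.04 times Ece2, a share under 90%. In 96 families 2 or more members reached 1 FPKM, and in 19 only 1 did. The families without a leader included the VEGF receptors and the junctional adhesion molecules (Esam 107 ± 3.33 FPKM, F11r 103 ± 3.87 FPKM).

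**Figure D4:**
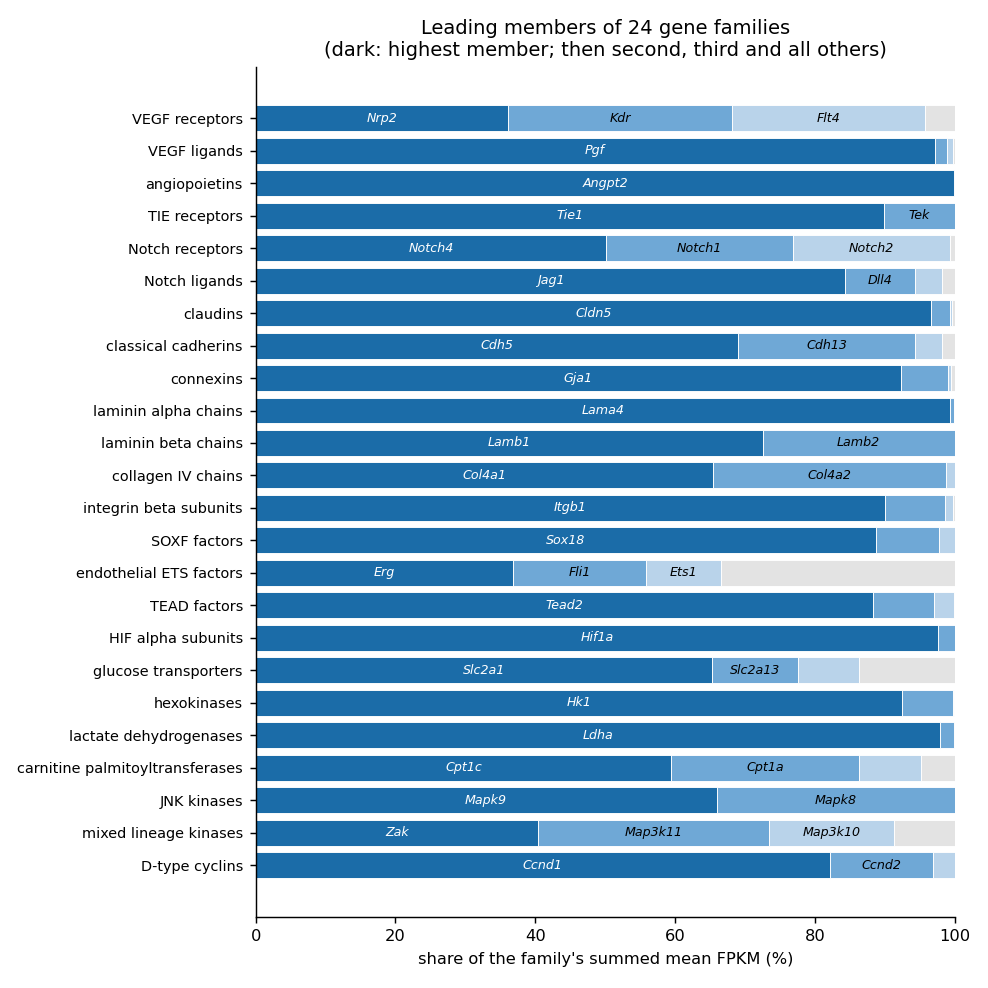
Share of the summed mean FPKM of 24 gene families held by the 3 highest members and by all others (horizontal axis, percent). Angpt2, Lama4, Ldha, Hif1a, Pgf and Cldn5 fill nearly the whole bar, and the VEGF receptors, ETS factors and mixed lineage kinases are shared among several members.

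Pgf held 97.1% ± 0.449 of VEGF ligand FPKM, and its second member Vegfb was at 4.22 ± 0.638 FPKM. Among VEGF receptors, the co-receptor Nrp2 and Kdr were at 87.4 ± 6.92 and 77.6 ± 4.38 FPKM with overlapping ranges, followed by Flt4, and all 5 members reached 1 FPKM. Kdr led when only the most abundant transcript of each gene was used. Angpt2 held 99.9% of angiopoietin FPKM, with Angpt1, the ligand made by pericytes, at 0.685 ± 0.124 FPKM. Of the TIE receptor genes, Tie1 was at 286, 282 and 278 FPKM and Tek, which encodes the angiopoietin receptor TIE2, at 31.9, 31.7 and 31.3 FPKM. The ratio of Tie1 to Tek was 8.93 ± 0.0443. In the Notch pathway, Notch4 held 50.2% ± 1.12 of receptor FPKM and was 1.88 ± 0.0873 times Notch1 (8.41 ± 0.827 FPKM), while Jag1 (28.1 ± 1.81 FPKM) was 8.48 ± 0.903 times Dll4. Ephb4 held 88.0% ± 0.672 of EPHB receptors, with Ephb1 second at 6.85 ± 0.327 FPKM, and Efnb2 75.5% ± 4.11 of ephrin B ligands, with Efnb1 second at 2.48 ± 0.153 FPKM.

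Flt1 and Tek were also read by transcript. Of Flt1 FPKM, 63.6% ± 2.48 was assigned to the transcript of 30 exons (ENSMUST00000031653, GRCm38 chromosome 5, 147561604 to 147726011, minus strand) and 36.4% ± 2.48 to one of 13 exons (ENSMUST00000110529, 147635159 to 147725988), which lacks the later exons, as the soluble, ligand-trapping form does. The annotated model of Tek with 23 exons and 4654 bases (ENSMUST00000102798) held 71.8% ± 3.83 of its FPKM.

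Junction proteins showed a clear choice of paralogue. Cldn5 held 96.6% ± 0.274 of claudin FPKM, with Cldn12 second at 8.87 ± 0.246 FPKM and 3 of 19 claudins at 1 FPKM or more. Gja1, connexin 43, held 92.3% ± 0.886 of connexin FPKM at 132, 148 and 154 FPKM, with Gjc1 second at 10.5 ± 0.886 FPKM. Cdh5 held 69.0% ± 0.347 of cadherin FPKM and Cdh13 was second. Pecam1 held 68.1% ± 0.628 of the immunoglobulin adhesion molecules, with Icam2 second at 212 ± 7.48 FPKM, and Selp 94.5% ± 1.18 of the selectins. Cav1 (82.5% ± 0.339, Cav2 138 ± 6.16 FPKM) led the caveolins and Ptrf, cavin 1 (50.1% ± 0.607, Sdpr 174 ± 2.29 FPKM), the cavins.

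Basement membrane genes were each led by the chain typical of vessels. Lama4 held 99.3% ± 0.0386 of laminin alpha FPKM at 115, 123 and 112 FPKM, and Lama5, the other endothelial alpha chain, was at 0.583 ± 0.0915 FPKM. Lamb1 (72.6% ± 1.21, Lamb2 38.8 ± 4.89 FPKM) and Lamc1 (95.2% ± 0.121) led the beta and gamma chains, so the leading alpha, beta and gamma chains are those of the laminin that holds the alpha 4 chain. The ratio of Lama4 to Lamb1 was 1.14 ± 0.0311 and that of Lamb1 to Lamc1 2.80 ± 0.112. Collagen IV was represented by Col4a1 at 624, 652 and 548 FPKM and Col4a2, its partner in the same trimer, at 310 ± 29.8 FPKM, a ratio of 1.96 ± 0.0169 that was steady although both genes were lowest in library 3. Among laminin receptors, Itgb1 (90.1% ± 0.383, Itgb3 45.9 ± 2.12 FPKM) and Itga6 (55.8% ± 0.116, Itga3 63.1 ± 3.96 FPKM) led the integrins. Of fibrillar collagens Col5a2 led at 49.0 ± 4.73 FPKM with Col5a1 second at 3.10 ± 0.267 FPKM. Thbs1 (96.1% ± 0.300, Thbs2 15.8 ± 0.744 FPKM) led the thrombospondins, Ctgf (69.9% ± 0.548, Cyr61 51.8 ± 4.60 FPKM) the CCN proteins and Igfbp7 (52.7% ± 0.779, Igfbp4 246 ± 11.7 FPKM) the IGF binding proteins. Timp2 (122 ± 2.31 FPKM) led Timp3 (90.1 ± 0.415 FPKM), an order that turned when only the most abundant transcript of each gene was used.

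Col18a1, whose C-terminal fragment is endostatin, was at 714 ± 28.2 FPKM, Nid1 at 77.1 ± 7.74 FPKM and Hspg2, perlecan, at 24.3 ± 3.89 FPKM. These 3 matrix genes were chosen after their values were seen. The serum and coagulation list had 11 of 13 genes at the threshold (84.6%, against 47.2% of all genes). Procr, the endothelial protein C receptor, was at 687, 685 and 680 FPKM, the urokinase receptor Plaur at 180 ± 3.84 FPKM, thrombomodulin Thbd at 38.9 ± 2.36 FPKM and F8 at 10.9 ± 0.906 FPKM. Tissue factor, F3, was at 0.561, 0.179 and 0.431 FPKM, and Vwf was the other gene below 1 FPKM, so the anticoagulant genes Procr, Thbd and Tfpi (94.2 ± 2.08 FPKM) were above the procoagulant F3 in every library.

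In the cytoskeleton, Tmsb4x (84.8% ± 0.527, Tmsb10 924 ± 28.3 FPKM), Actb (85.2% ± 0.401, Actg1 494 ± 12.7 FPKM), Myh9 (89.9% ± 0.237, Myh10 16.5 ± 1.77 FPKM), Pfn1 (97.2% ± 0.0676, Pfn2 13.5 ± 0.334 FPKM) and Lmna (92.3% ± 0.210, Lmnb2 15.7 ± 1.83 FPKM) led their families. Tpm4 held 51.9% ± 0.267 of the tropomyosins at 977, 978 and 978 FPKM, nearly the same in each library, and Tpm1 was second at 451 ± 11.1 FPKM. Tuba1a (63.7% ± 0.856, Tuba1b 182 ± 6.39 FPKM) led the alpha tubulins and Tubb5 (47.6% ± 0.825, Tubb4b 320 ± 5.84 FPKM) the beta tubulins. Actn1 and Actn4 were at 81.9 ± 6.32 and 64.7 ± 7.58 FPKM. This order was lost when only the most abundant transcript of each gene was used. Cfl1 (67.6% ± 0.207), Myl6 (72.1% ± 1.63), Anxa2 (55.2% ± 0.424), Lgals1 (91.4% ± 0.372) and S100a6 (56.9% ± 1.12) led the cofilins, light chains, annexins, galectins and S100 proteins, with Dstn (417 ± 6.07 FPKM), Myl12a (656 ± 42.6 FPKM), Anxa5 (468 ± 11.2 FPKM), Lgals8 (54.2 ± 1.15 FPKM) and S100a10 (869 ± 36.6 FPKM) second.

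Among transcription factors, Erg, an ETS factor needed for endothelial identity, was at 182, 180 and 176 FPKM and Fli1, its close relative, at 92.4, 90.5 and 94.2 FPKM. Erg was higher in every library, but Fli1 led when only the most abundant transcript of each gene was used. Sox18 held 88.7% ± 0.558 of SOXF FPKM, with Sox7 second at 4.90 ± 0.289 FPKM. Tead2 held 88.2% ± 0.926 of the TEAD factors that act with YAP, and Tead1 was second at 6.95 ± 0.641 FPKM. Klf6 (46.7% ± 1.43, Klf3 20.1 ± 1.21 FPKM) led the Kruppel-like factors, Id3 (68.1% ± 1.09, Id1 52.3 ± 9.38 FPKM) the ID proteins, Nr2f6 (68.8% ± 1.05) the COUP factors ahead of Nr2f2, and Gata2 (81.3% ± 7.57) the GATA factors ahead of Gata6 (0.684 ± 0.0252 FPKM). Mef2a and Mef2c were at 30.0 ± 1.39 and 20.9 ± 0.919 FPKM, Foxo3 and Foxo4 at 15.7 ± 0.222 and 9.14 ± 0.722 FPKM.

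ETS factors bind a GGAA core, and enhancers of endothelial genes are known for it. Promoters of 4 pan-endothelial genes, chosen for holding such a sequence, are shown because the ETS gene Erg had the highest level of the transcription factors in the pan-endothelial list. Each sequence runs from 110 bases before to 20 bases after a RefSeq start (GRCm38.p6, 5′ to 3′ on the gene's strand), with CAGGAAG or its reverse complement CTTCCTG in capitals.
Egfl7 (chr2:26583755-26583884, plus strand): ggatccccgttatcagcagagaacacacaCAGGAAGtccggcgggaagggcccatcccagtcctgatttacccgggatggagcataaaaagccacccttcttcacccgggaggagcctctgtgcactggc
Erg (chr16:95459329-95459458, minus strand): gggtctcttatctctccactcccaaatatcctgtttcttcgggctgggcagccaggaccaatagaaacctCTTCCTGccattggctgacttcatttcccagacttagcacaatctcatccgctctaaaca
Robo4 (chr9:37401862-37401991, plus strand): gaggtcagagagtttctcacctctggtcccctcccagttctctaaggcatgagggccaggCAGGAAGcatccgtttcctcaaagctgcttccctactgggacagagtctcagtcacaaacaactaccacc
Calcrl (chr2:84425247-84425376, minus strand): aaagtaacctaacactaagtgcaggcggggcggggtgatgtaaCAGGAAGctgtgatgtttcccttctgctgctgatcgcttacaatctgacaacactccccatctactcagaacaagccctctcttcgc
Over windows of 300 bases and both strands, CAGGAAG was found for 6 of the 18 pan-endothelial genes with an entry (33.3%), against 14.8% of all 27025 genes and 14.4% of those at 1 FPKM or more. CCGGAAG, another ETS-type sequence, was found for 40.3% of ribosomal protein genes, 21.8% of genes at 1 FPKM or more and 9.93% of all genes, and for none of the pan-endothelial genes. Promoters of genes at 1 FPKM or more also had a higher median GC content than all promoters, 61.3% against 52.8%. The reverse complement CTTCCTG holds a pyrimidine run of the kind counted above, so the 2 counts are not independent. These are matches of letters, with no measure of binding.

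Of the TGF beta and BMP pathway, receptors of both and the TGF beta ligands were read. Tgfbr2 held 93.4% ± 0.408 of type II receptors at 270, 270 and 262 FPKM, with Acvr2a second at 9.57 ± 0.650 FPKM. Acvrl1 held 70.5% ± 0.934 of type I receptors, ahead of Tgfbr1 at 11.1 ± 0.221 FPKM, and the co-receptor Eng 88.8% ± 0.105 of type III, with Tgfbr3 at 12.6 ± 0.804 FPKM. The ligands Tgfb3 and Tgfb1 were at 12.8 ± 0.978 and 10.4 ± 0.615 FPKM. Smad1, which carries BMP signals, was at 120 ± 3.92 FPKM and Smad2, which carries TGF beta signals, at 51.6 ± 1.56 FPKM.

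Vasoactive systems were mostly represented by a single member. Edn1 held 99.7% of endothelin FPKM at 70.7, 79.9 and 75.7 FPKM, Ednrb 99.9% of endothelin receptors and Nos3 99.8% of nitric oxide synthases, while Edn2 was listed at 0. S1pr1, the sphingosine 1-phosphate receptor that tightens the barrier, held 96.4% ± 0.210 (S1pr4 3.94 ± 0.210 FPKM), and the thrombin receptor F2r 85.8% ± 0.816 (F2rl1 8.19 ± 0.359 FPKM). The adrenomedullin receptor needs Calcrl (75.8 ± 3.72 FPKM) with a RAMP protein, of which Ramp2 held 90.6% ± 0.835 and Ramp3 was at 7.74 ± 0.528 FPKM. Ptgs2, the inducible cyclooxygenase, was at 6.18 ± 0.666 FPKM and Ptgs1, the constitutive form, at 0.828 ± 0.208 FPKM.

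Families of oxygen sensing and metabolism differed in how far their leader stood ahead. Hif1a was at 98.7, 100.4 and 102 FPKM and Epas1, which encodes HIF-2 alpha and is abundant in endothelium of the intact lung, at 2.40 ± 0.0107 FPKM, a ratio of 41.9 ± 0.906. Of the prolyl hydroxylases that mark HIF for degradation, Egln2 held 70.8% ± 0.615 and Egln1 was second at 12.4 ± 0.518 FPKM. In glycolysis the leading members were Slc2a1 (65.3% ± 1.35, Slc2a13 9.36 ± 0.301 FPKM), Hk1 (92.4% ± 0.557, Hk2 4.49 ± 0.507 FPKM), Pfkl (59.98% ± 1.75, Pfkp 14.4 ± 1.96 FPKM), Aldoa (684 ± 9.13 FPKM), Pgk1 (538 ± 3.72 FPKM), Pgam1 (248 ± 8.27 FPKM), Eno1 (98.7% ± 0.259, Eno3 2.19 ± 0.0817 FPKM), Pkm (999 ± 16.1 FPKM) and Ldha (97.9% ± 0.449, Ldhb 5.89 ± 1.02 FPKM). Gapdh, at 105, 96.9 and 102 FPKM, was listed lower than Aldoa, Pgk1, Pgam1, Eno1 and Pkm in every library. As said above, Gapdh has near-identical copies in the genome, so its level and this order are uncertain. Slc16a1 led the monocarboxylate transporters at 10.6 ± 0.343 FPKM, with Slc16a3 second at 1.29 ± 0.197 FPKM.

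Pkm was read by transcript because its alternative exons separate the M2 form of dividing cells from the M1 form of muscle. The transcript with the exon at 59675568 to 59675734 (ENSMUST00000034834, GRCm38 chromosome 9, plus strand) was at 889, 867 and 869 FPKM, or 87.7% ± 0.277 of the 2 forms. The transcript with the exon upstream of it, at 59675029 to 59675195 (ENSMUST00000163694), was at 128, 123 and 119 FPKM, or 12.3% ± 0.277. Both exons have 167 bases, and the exon nearer the 3′ end is the M2 exon.

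Fatty acid handling was led by Fabp4, 2.70 ± 0.00553 times Fabp5, a ratio that held in every library although both were lowest in library 2. Cpt1c, an isoform known from brain, was at 19.3 ± 0.753 FPKM and Cpt1a, the form that feeds mitochondrial fat oxidation in endothelium, at 8.70 ± 1.44 FPKM. Cox4i1 (1084 ± 23.5 FPKM), Cox6a1 (201 ± 6.15 FPKM), Cox7a2l (447 ± 21.6 FPKM, Cox7a2 228 ± 12.4 FPKM) and Slc25a5 (63.2% ± 0.343, Slc25a4 225 ± 3.87 FPKM) led their families, and Cox4i2, the hypoxia-linked subunit, was at 0, 0 and 0.179 FPKM. Sod1 (96.9% ± 0.0960, Sod2 13.8 ± 0.178 FPKM), Ftl1 (62.6% ± 1.47, Fth1 1007 ± 87.2 FPKM), Mt1 (81.2% ± 1.54, Mt2 12.6 ± 0.823 FPKM) and Ctsd (54.9% ± 0.0611, with Ctsl second) led the redox, iron, metal and lysosomal families.

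The genes deleted in the other genotype of the series were expressed in these wild type cells. Among the mixed lineage kinases, Zak was at 45.0, 40.2 and 42.1 FPKM, Map3k11, which encodes MLK3, at 36.4, 33.8 and 34.0 FPKM and Map3k10, which encodes MLK2, at 18.8 ± 0.450 FPKM. Zak held 40.3% ± 0.900 of the family, an order that turned in favour of Map3k11 when only the most abundant transcript of each gene was used. Of the JNK genes downstream, Mapk9 was 1.94 ± 0.114 times Mapk8 (18.3 ± 1.22 FPKM), and Mapk10, the neural form, was at 0.0149 FPKM on average. Of the p38 genes, Mapk11 (22.6 ± 1.02 FPKM) was above Mapk14 (17.6 ± 0.469 FPKM). Rras2 (195 ± 8.14 FPKM) exceeded Nras (101 ± 3.11 FPKM), Rhoc (516 ± 5.89 FPKM) exceeded Rhoa (207 ± 6.16 FPKM) and Cdc42 (482 ± 10.8 FPKM) exceeded Rac1 (58.4 ± 1.89 FPKM). Akt1 (85.3% ± 0.578) and Pik3ca (82.5% ± 0.995, Pik3cb 3.41 ± 0.296 FPKM) led the AKT and PI3 kinase genes.

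The listed genes of the cell cycle, inhibitors among them, were all present. All 23 reached 1 FPKM in all 3 libraries (100%, against 47.2% of all genes), with a median of 34.6 FPKM. Ccnd1, cyclin D1, was at 434, 466 and 443 FPKM, 5.58 ± 0.330 times Ccnd2 (80.4 ± 6.97 FPKM), and Cdk4 was 25.05 ± 4.95 times Cdk6 (8.64 ± 1.43 FPKM). Pcna was at 142 ± 2.17 FPKM, Cdk1 at 57.7 ± 3.27 FPKM, Top2a at 41.7 ± 2.16 FPKM and Mki67 at 6.92 ± 0.610 FPKM. Inhibitors of the cycle were abundant in the same libraries. Cdkn1a, which encodes p21, was at 62.4 ± 3.43 FPKM and Cdkn1b, p27, at 45.8 ± 0.956 FPKM, while Cdkn2a was at 194, 178 and 191 FPKM and Cdkn2b, p15, at 149 ± 9.85 FPKM, an order that was lost with the most abundant transcript alone.

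Cdkn2a makes p16 and p19ARF, inhibitors that rise in cultured mouse cells, from different first exons on chromosome 4 (GRCm38, minus strand). The transcript that starts at the exon nearer the shared body (ENSMUST00000060501, exon 89281986 to 89282192), the p16 form, was at 164, 140 and 154 FPKM, or 81.4% ± 3.18 of the gene. The transcript from the upstream exon (ENSMUST00000107131, exon 89294334 to 89294653), the p19ARF form, was at 29.5, 38.5 and 36.1 FPKM, or 18.6% ± 3.18. The p16 form was higher in all 3 libraries. The estimates divide reads of shared exons between forms, so these shares depend on that step.

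Housekeeping and surface families ran from a clear lead to near parity. Cyclophilins, which fold proteins, were led by Ppia (2422 ± 71.0 FPKM), with Ppic second (478 ± 25.1 FPKM). The RNA helicases of translation initiation were led by Eif4a1 (726 ± 2.89 FPKM), with Eif4a2 second (255 ± 6.92 FPKM). Peroxiredoxins, which remove peroxide, were led by Prdx1 (654 ± 36.2 FPKM), with Prdx5 second (412 ± 13.8 FPKM). The order of these last genes was lost with the most abundant transcript of each gene alone. Tetraspanins of the cell surface and vesicles were led by Cd63 (511 ± 13.1 FPKM), with Cd81 second (478 ± 7.44 FPKM). Antiviral membrane proteins were led by Ifitm3 (291 ± 9.93 FPKM), with Ifitm2 second (255 ± 7.19 FPKM). FOXF, FOXC and FOXM factors were led by Foxc2 (2.90 ± 0.131 FPKM), with Foxm1 second (2.56 ± 0.0590 FPKM).

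The 3 libraries were close to each other. Over 11346 genes with a mean of 1 FPKM or more, the median coefficient of variation was 5.38%, and 655 genes (5.77%) exceeded 20%. It fell with level, from a median of 10.5% at 1 to 5 FPKM to 5.75% at 5 to 20, 3.88% at 20 to 100 and 3.08% above 100 FPKM, as the plot of spread against level shows. Pearson's r of log2(FPKM + 1) across genes, which are not independent replicates, was 0.995 between every pair of libraries. Of the 10 genes with the largest range between libraries in log2(FPKM + 1), at a mean of 10 FPKM or more, 9 had a highest transcript under 700 bases. That transcript held from 35.9% (Foxn3) to 100% of the gene's FPKM. Of all 6408 genes at this level, 278 had a highest transcript known to be under 600 bases, and the share under 700 bases was not computed. Eef2k, a kinase of translation control, was at 11.1, 11.5 and 47.4 FPKM, of which 35.7 FPKM in library 3 came from a transcript of 672 bases that was listed at 0 in the other libraries. Prkag2, a subunit of AMPK, was at 4.85, 5.13 and 28.7 FPKM, of which 23.3 FPKM in library 3 came from a transcript of 211 bases listed at 0 in the other libraries. E2f3, a cell cycle factor, was at 82.4, 124 and 58.5 FPKM, Foxn3 at 23.4, 25.7 and 11.1 FPKM, Zfp532 at 7.08, 10.6 and 17.4 FPKM, and Immp2l at 31.6, 19.5 and 6.97 FPKM. Of these 10 genes, Ifit3, an interferon-induced gene, was the one led by a longer transcript, of 1745 bases.

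**Figure D5:**
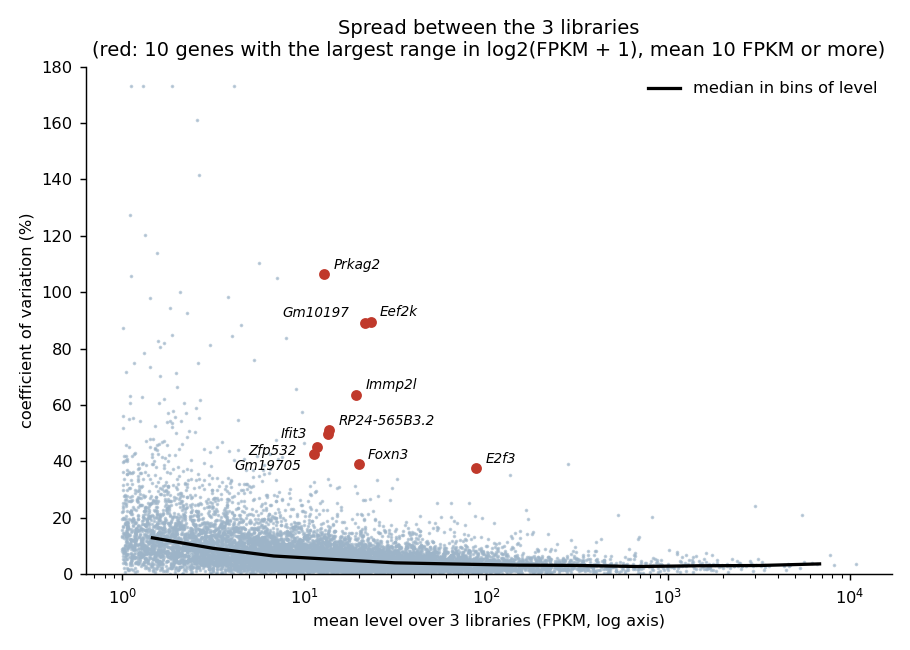
Coefficient of variation over the 3 libraries (percent) against mean FPKM (log axis), 1 point per gene with a mean of 1 FPKM or more, with the running median as a line and in red the 10 genes with the largest range in log2(FPKM + 1) at a mean of 10 FPKM or more. The line falls with level, in step with the medians of 10.5% at 1 to 5 FPKM and 3.08% above 100 FPKM, and the red genes lie far above it.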

How the data were processed

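Per the labels' protocols, total RNA came from RNeasy Plus columns and libraries from the NEBNext Ultra RNA kit. The submitters' processing notes name TopHat2. The authors deposited FPKM per transcript (52655 transcripts); which tool, genome build and annotation gave them was not stated in these sources. Values were summed per gene identifier (23422 genes) in Python 3.11.15 with pandas 2.3.3, with no filter and no test. Lengths came from GENCODE M21, which held 98.2% of transcripts, and promoters from RefSeq. Depth was estimated from low values of 9866 single-transcript genes (90.0 to 91.3% within 0.1 of a whole fragment), and this step was tested on simulated data. The naming rule covered the 40 highest genes, the leading and second member of each family, label-check genes, the 4 highest members of each marker list, all lymphatic, capillary, arterial and venous genes, members listed at 0 and the 10 genes of largest range in log2(FPKM + 1). Some ribosomal protein genes and family members under it are given by counts only, and other genes were added for their role. Members, lists and added genes were chosen with earlier results of these data known. Some members are not reported here. Symbols are spelled as deposited.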

Additional observations from a re-analysis of the deposited data

How the results depend on the processing

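Levels of the highest genes, the number of genes at 1 FPKM, marker counts and leading paralogues were recomputed under other settings. Of 41 such values for the main results, 37 stayed within 1.5 times of the count or within the spread of the libraries. The share of FPKM in the top 100 genes moved from 37.1% to 36.7% without transcripts under 300 bases and to 37.7% without histone genes, and that of ribosomal proteins from 26.6% to 27.1% and 27.3%, each by more than the SD of the libraries. The whole-length scale and the omission of histones were chosen after seeing the data. Genes at the threshold numbered 11907, 10016 and 8192 at 0.5, 2 and 5 FPKM, and 11141 to 11156 with a library left out. A count over fewer libraries, here and for the marker lists, cannot fall, so leaving out a library is a weak check of these counts. Most abundant transcripts alone kept the same leading member in 104 of 112 families. Each left-out library kept all 112, but this follows from the rule: ranges that do not overlap cannot come to overlap when a library is removed. Leaving out a library gave a leader to families that had none, among them Nrp2 (without replicate 2 or 3) and Esam (without replicate 1 or 3), while most abundant transcripts alone put Kdr ahead of Nrp2. Of 217 values for the other marker lists, 16 moved by over 1.5 times, all with another threshold. At 5 FPKM the mesenchymal transition list had 5 of 15 genes, macrophages 3 of 18 and smooth muscle 2 of 18, and at 0.5 FPKM the haematopoietic list had 5 of 12. No paired analysis was possible because the result comes from no test: there is 1 group. Levels under about 0.1 FPKM often rest on a few fragments, and the level that a few fragments give is higher for short transcripts. An estimated 3 fragments would give 3.34 FPKM for Hist1h4k (312 bases) and 20.6 FPKM for Gm28967 (281 bases). A short transcript can thus pass 1 FPKM on a few fragments. The transcript of mt-Atp8 (204 bases), at 237, 409 and 203 FPKM, is shorter than the length taken off, so its fragments could not be estimated.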

Other observations

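Chaperones, growth control genes and antigen presentation add to the description. Hspa8, the constitutive HSP70, was at 1491 ± 24.96 FPKM and Hsp90ab1 at 567 ± 16.9 FPKM, and B2m, the light chain of MHC class I, at 1000.1 ± 29.6 FPKM beside H2-D1 at 396 ± 32.8 FPKM. The imprinted genes H19 and Mest were at 73.4 ± 1.48 and 59.9 ± 1.87 FPKM, while Igf2, the neighbour of H19, was at 1.78 ± 0.0811 FPKM. Trp53 was at 17.2 ± 1.89 FPKM and its target Mdm2 at 114 ± 0.835 FPKM. Ccl2 and Ccl7 were at 881 ± 18.3 and 36.6 ± 1.61 FPKM, whereas Cxcl1 was at 1.17 ± 0.214 FPKM and Il6 at 0.0777, 0 and 0 FPKM. These genes were chosen after their values were seen.

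Some interferon-stimulated genes shared an order of libraries. Ifit3 was at 11.0, 21.1 and 8.42 FPKM, Ifit1 at 8.12, 15.2 and 6.50 FPKM, Usp18 at 15.4, 19.7 and 10.5 FPKM, Rsad2 at 5.61, 9.53 and 4.25 FPKM and Isg15 at 23.1, 25.4 and 14.8 FPKM. Of 12 such genes, chosen after this was seen and from no fixed list, 11 were highest in library 2 and all 12 were lowest in library 3. These counts follow in part from that choice, and the same shares over all genes were not computed. The exception in library 2 was Ifi44, at 29.1, 24.5 and 18.3 FPKM. Bst2, also interferon-induced, was at 1357, 1208 and 1207 FPKM, Ifitm3 at 282, 302 and 289 FPKM and B2m at 1027, 968 and 1006 FPKM, and none of these followed this order. The cause was not tested.

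Differences between libraries 2 and 3 varied with transcript length. Among 835 genes at 10 FPKM or more whose main transcript has 5000 bases or more, 72.1% were higher in library 2 than in library 3, with a median difference of 0.064 in log2(FPKM + 1). Among 1320 genes with main transcripts of 600 to 1500 bases, 28.2% were, with a median difference of -0.056. Between libraries 1 and 3 the share for the longest genes was 51.1%. Among 278 genes with main transcripts under 600 bases, 36.7% were higher in library 2 than in 3 and 37.1% higher in library 1 than in 3. Long matrix and cytoskeletal genes such as Tnc (691, 780 and 597 FPKM), Col4a1 (624, 652 and 548 FPKM), Fn1 (413, 491 and 386 FPKM) and Flna (152, 170 and 138 FPKM) were highest in library 2 and lowest in library 3, by more than the median difference of long genes. The part of transcript length in this was not tested.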
